A study of Homo sapiens with 12 samples.

Results

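The genes described here are 10 components of the Notch pathway: the receptor genes NOTCH1, NOTCH2 and NOTCH3, the ligand genes JAG1, JAG2 and DLL1, the receptor-modifying enzyme gene LFNG and the target genes HES1, HES4 and HEY1. They were taken by gene symbol, and all 10 had a row among the 25433 genes of the deposited count tables. The cells were A549, an epithelial line from a human lung adenocarcinoma, at passages 5 to 10. Cultures were left without treatment (control), received TGF-β1 at 10 ng/mL, or received the same TGF-β1 dose with 40 mM sodium acetate, all for 2 days, with 4 libraries in each of the 3 groups. Acetate was never given without TGF-β1 and sodium never without acetate, so effects of acetate, of sodium and of osmolarity cannot be told apart. The results hold for 1 tumour line. Medium (Ham's F-12K) with fetal bovine serum was shared by all groups. Nothing in the labels tells if replicate libraries were grown as separate cultures, so p-values measure library-to-library spread, possibly only technical.

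Notch receptors sit in the plasma membrane and are switched on by ligands of the Jagged and Delta-like families on a neighbouring cell. Binding lets an ADAM protease and then γ-secretase cut the receptor, and the freed intracellular part joins the DNA-binding protein RBPJ and a Mastermind coactivator in the nucleus, where it turns on genes of the HES and HEY families. Fringe enzymes such as LFNG add sugars to the receptors in the Golgi and change which ligands they answer to. In the lung the pathway takes part in the choice between secretory and ciliated airway cells, and TGF-β is known to induce JAG1 and HEY1 in several epithelia.

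Counts are given per gene, and whether they cover exons only is not stated. Positions are those of the files on hg38. NOTCH1 (ENSG00000148400.9) lies on chromosome 9 from 136494444 to 136545862 (minus strand). NOTCH2 (ENSG00000134250.18) lies on chromosome 1 from 119911553 to 120069626 (minus strand). NOTCH3 (ENSG00000074181.8) lies on chromosome 19 from 15159038 to 15200981 (minus strand). JAG1 (ENSG00000101384.11) lies on chromosome 20 from 10637684 to 10674107 (minus strand). JAG2 (ENSG00000184916.8) lies on chromosome 14 from 105140981 to 105168824 (minus strand). DLL1 (ENSG00000198719.8) lies on chromosome 6 from 170282206 to 170306565 (minus strand). LFNG (ENSG00000106003.12) lies on chromosome 7 from 2512529 to 2529177 (plus strand). HES1 (ENSG00000114315.3) lies on chromosome 3 from 194136145 to 194138732 (plus strand). HES4 (ENSG00000188290.10) lies on chromosome 1 from 998962 to 1000172 (minus strand). HEY1 has the identifier ENSG00000164683.16.

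Levels are given as CPM, the read count of a gene relative to its library's total after scaling between libraries for composition (TMM). Total counts per library ran from 34698057 to 53936023. As a floor, 3 counts equalled 0.0565 to 0.0858 CPM. This is a rough upper limit on the expected count where 0 was seen, for counting error alone. Column codes match no sample label. S1 to S4 were read as control, S15 to S18 as TGF-β1 and S22 to S25 as TGF-β1 with acetate, from the names of the tables and the columns both tables hold, and every comparison rests on that reading. Epithelial marker genes (EPCAM, KRT8, KRT18, KRT19 and CDH1) summed to 4209 to 4431 CPM in control, 3462 to 3796 with TGF-β1 and 4128 to 4859 with acetate, nearly all of it KRT8 and KRT18. KRT8 measured 2251 ± 79.7 CPM in control, 2238 ± 120 under TGF-β1 and 2522 ± 171 once acetate was added (n = 4). KRT18 measured 1955 ± 17.2, 1457 ± 49.8 and 1838 ± 128 CPM in the same order. KRT19, another epithelial keratin, measured 36.7 ± 3.22 CPM in control, 7.01 ± 0.656 under TGF-β1 and 58.4 ± 9.07 once acetate was added (n = 4). Within that list CDH1, the epithelial cadherin, measured 58.7 ± 2.75 CPM in control, 1.46 ± 0.396 under TGF-β1 and 45.5 ± 2.62 once acetate was added (n = 4), and EPCAM 4.22 ± 0.325, 1.08 ± 0.223 and 5.62 ± 0.344 CPM. Of 10 markers of endothelial, immune and fibroblast cells, only 5 had a row among the deposited counts. These 5 summed to 12.6 to 15.05 CPM in control, 16.7 to 20.2 with TGF-β1 and 28.1 to 29.6 with acetate. Most of that sum was CD68, a lysosomal protein that many cells make, while PDGFRA, PDGFRB, CD14 and DCN had group means of at most 2.89 CPM, with DCN at 1 or 2 counts in each control library. The part of these markers in the results below was not tested. In bulk RNA, fewer cells of a type and less RNA per cell cannot be told apart.

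TGF-β1 alone raised 5 of the 10 genes, namely NOTCH2, JAG1, LFNG, HES1 and HEY1, and lowered NOTCH1, NOTCH3 and JAG2, while HES4 did not pass and DLL1 was below the filter on low counts. Over all 22051 genes tested, 34.1% were called higher and 32.8% lower at an edgeR adjusted p below 0.05 (quasi-likelihood test, Benjamini-Hochberg adjustment over all genes tested), so calls of this kind were common. Scaled by library totals alone, the calls were 6078 higher and 8676 lower, against 7518 and 7224. The median log2 fold change of the 9 tested members was 0.49, against 0.02 over all genes.

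Acetate added to TGF-β1 raised NOTCH1, NOTCH3, JAG2 and DLL1 and lowered JAG1, HES1 and LFNG. NOTCH2, HES4 and HEY1 did not pass. Calls over all 22336 genes tested came to 33.3% higher and 30.4% lower. The members' median log2 fold change was 0.16 with DLL1 included, and the median over all genes was 0.03. DLL1 entered this test only through its counts with acetate, so no contrast is drawn from these medians. When libraries were scaled by their totals alone, the calls over all genes became 9592 higher and 4699 lower, against 7437 and 6792, and the median over all genes became 0.16, so small changes in this comparison carry that shift.

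TGF-β1 with acetate, set against untreated control, gave 6 genes higher (NOTCH2, NOTCH3, JAG2, DLL1, HEY1 and LFNG) and 3 lower (NOTCH1, JAG1 and HES1), with HES4 not passing. DLL1 again passed the filter only through its counts with acetate, so the members' median given next is not compared with that of all genes. Of all 22742 genes in that fit, 36.1% were called higher and 34.4% lower, and the median log2 fold change was 0.91 over the members and 0.02 over all genes. These 3 comparisons share libraries with each other, so values from them are given side by side and are not independent. Among all genes tested, the groups did not overlap in 61.3% (TGF-β1 against control), 57.3% (acetate against TGF-β1) and 64% (acetate against control). Separate groups, stated below for single genes, were therefore common.

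**Figure D1:**
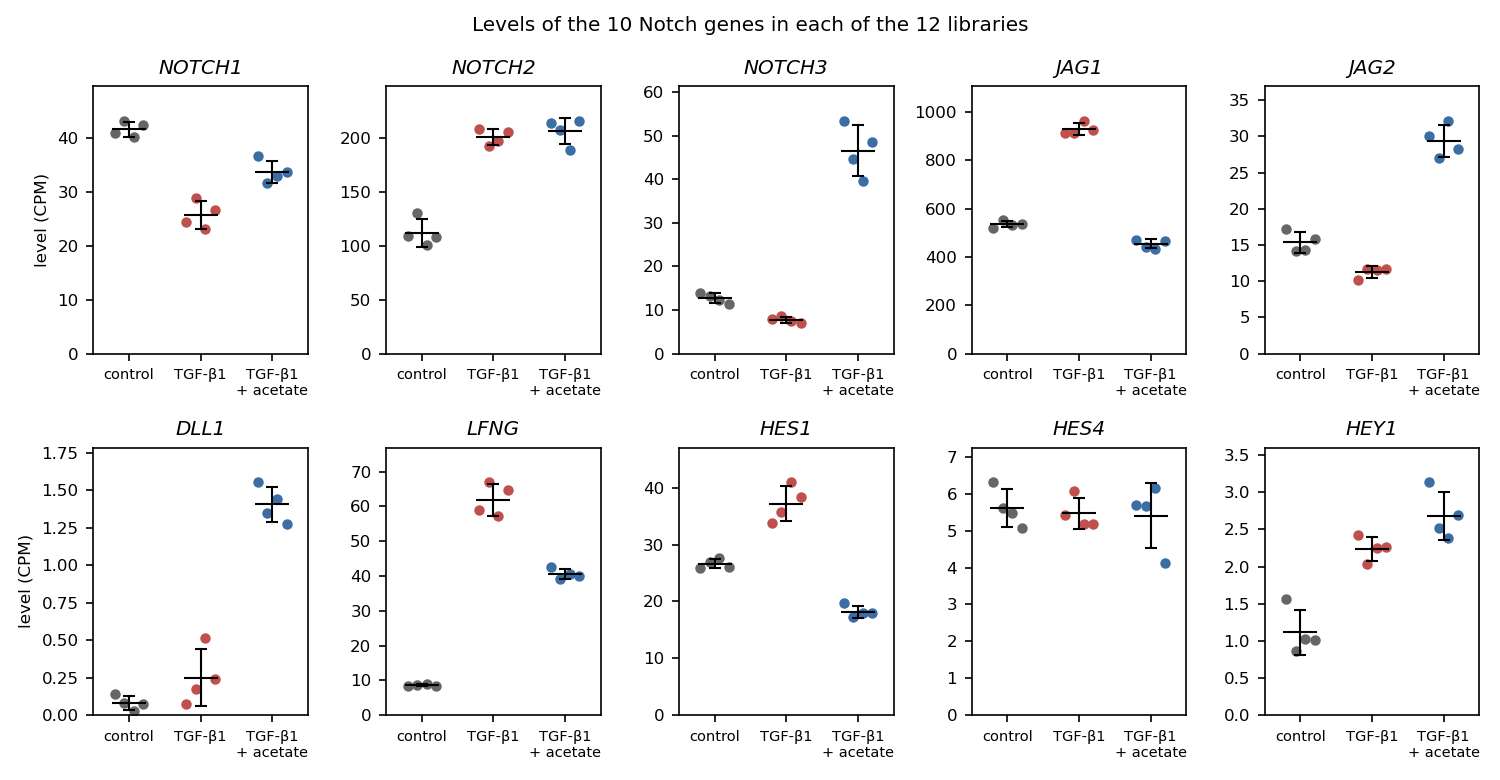
Level in CPM (vertical axes, linear from 0) of each of the 10 genes in the 12 libraries, with points for single libraries and black bars for the mean and SD of each group of 4. The 4 acetate libraries of NOTCH3 sit between 39.7 and 53.5 CPM, all above the control and TGF-β1 libraries, and those of HES1 sit between 17.3 and 19.7 CPM, all below them.

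NOTCH3, a receptor best known from vascular smooth muscle and from lung and ovarian tumours, had the largest log2 fold change of the 3 receptor genes when acetate was added. In control it stood at 14.0, 13.1, 12.2 and 11.3 CPM, with TGF-β1 at 7.88, 8.72, 7.38 and 7.11 CPM, and with acetate at 53.5, 44.7, 39.7 and 48.6 CPM (libraries S1 to S4, S15 to S18 and S22 to S25 in order). No group overlapped another, as was common over all genes: the TGF-β1 libraries were the lowest and the acetate libraries the highest. The log2 fold change was -0.70 (SE 0.09) for TGF-β1 against control, with an edgeR adjusted p of 7.8e-07, and 2.60 (SE 0.11) for acetate against TGF-β1, a 6.06-fold rise with an edgeR adjusted p of 1.5e-12. Acetate libraries exceeded control by 1.88 on the log2 scale (SE 0.11, edgeR adjusted p = 1.5e-13).

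NOTCH1, the receptor most often altered in squamous and blood cancers, fell with TGF-β1 and was higher with acetate than without. Its values were 41.0, 43.2, 40.2 and 42.5 CPM in control, 24.5, 28.96, 23.1 and 26.7 CPM with TGF-β1, and 36.6, 31.7, 32.9 and 33.8 CPM with acetate. The acetate libraries lay between control and TGF-β1 without touching either. Log2 fold changes were -0.69 (SE 0.08) for TGF-β1 against control, 0.40 (SE 0.08) for acetate against TGF-β1 and -0.30 (SE 0.05) for acetate against control. The largest edgeR adjusted p of the 3 was 1.2e-04.

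NOTCH2, the most abundant receptor transcript in these cells, rose with TGF-β1, and its further change with acetate did not pass. It measured 109, 131, 101 and 108 CPM in control, 208, 193, 197 and 206 CPM with TGF-β1, and 214, 208, 189 and 216 CPM with acetate. Control lay apart from the treated libraries, and both treated groups overlapped. The rise over control was 0.85 on the log2 scale (SE 0.08, edgeR adjusted p = 3.0e-09). For acetate against TGF-β1 the log2 fold change was 0.05 (SE 0.05, edgeR adjusted p = 0.33), and it passed when libraries were scaled by totals (0.18, edgeR adjusted p = 0.004) and when library S24 was left out (0.09, edgeR adjusted p = 0.044). The largest edgeR adjusted p over the alternatives was 0.88. NOTCH2 has near-identical partial copies, and how reads were divided among them is uncertain. The copy listed as NOTCH2NL measured 1.99 ± 0.329 CPM in control, 3.18 ± 0.747 under TGF-β1 and 2.95 ± 0.391 once acetate was added (n = 4).

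To compare genes with each other, CPM was divided by exon length in kilobases. This takes the counts to be of exons, which the sources do not state. On that scale NOTCH2 made up 55.3 ± 2.06% of the summed level of NOTCH1, NOTCH2 and NOTCH3 in control, 78.3 ± 1.90% under TGF-β1 and 60.0 ± 1.40% once acetate was added (n = 4). NOTCH1 took 33.5 ± 1.67%, 16.3 ± 1.54% and 15.9 ± 0.869% in the same order. NOTCH3 took 11.2 ± 1.06%, 5.42 ± 0.511% and 24.1 ± 1.37%, so with acetate it stood above NOTCH1 in all 4 libraries, while in control and with TGF-β1 NOTCH1 stood above it. The summed receptor level was 12.04 ± 0.923 CPM per kilobase in control, 15.3 ± 0.392 under TGF-β1 and 20.5 ± 1.45 when acetate was present. These shares depend on the length used: with the longest transcript of each gene, a choice made after seeing the data, NOTCH2 came to 62.3%, 82.8% and 66.9% and NOTCH3 to 9.27%, 4.21% and 19.7%, with the groups of both genes in the same order as by exon length. NOTCH1 came to 28.5%, 13.0% and 13.4%, so the order of its TGF-β1 and acetate shares turned with the length used.

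**Figure D2:**
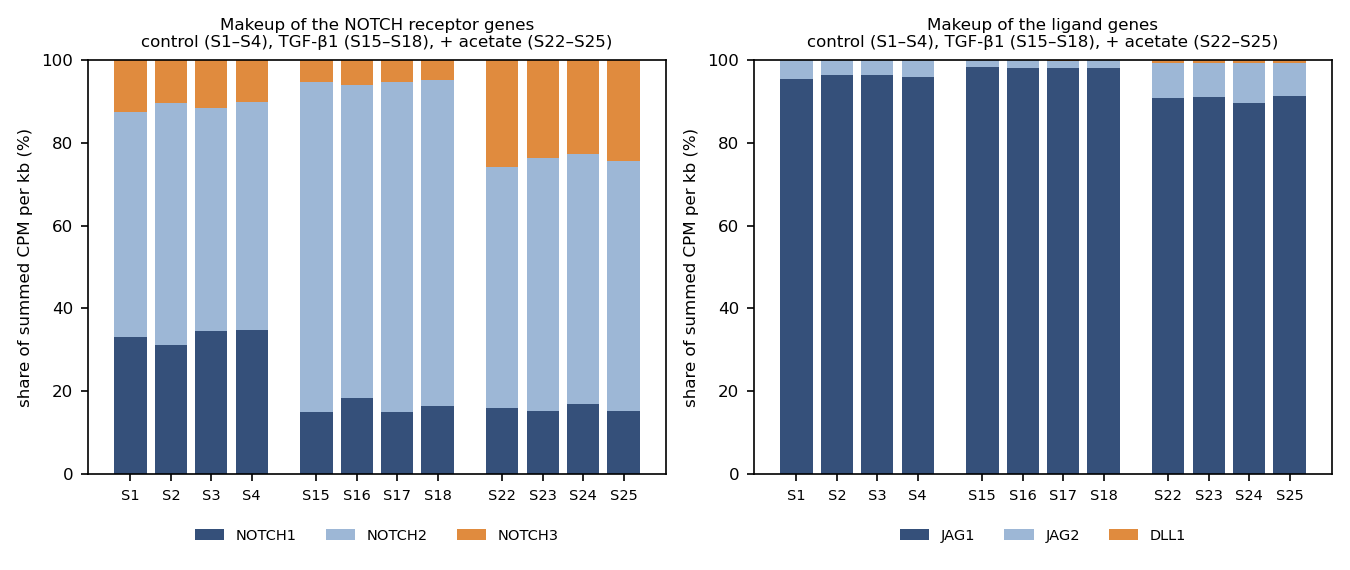
Share in percent (vertical axes) of the summed CPM per kilobase taken by each receptor gene (left) and each ligand gene (right) in each of the 12 libraries (bars). NOTCH3 takes 22.7% to 25.9% of the receptor level in the 4 acetate libraries and 4.87% to 6.10% in the TGF-β1 libraries, while JAG1 takes at least 89.5% of the ligand level in every library.

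JAG1, a Jagged ligand and a recognised target of TGF-β in epithelial cells, was the most abundant member per length in all 3 groups. It measured 520, 553, 533 and 538 CPM in control and rose to 911, 912, 963 and 926 CPM with TGF-β1. With acetate it was back to 471, 442, 434 and 468 CPM, so that the acetate libraries lay below those of control and the TGF-β1 libraries stood far above both. Log2 fold changes were 0.80 (SE 0.03, edgeR adjusted p = 2.0e-12) for TGF-β1 against control, -1.02 (SE 0.03, edgeR adjusted p = 1.8e-12) for acetate against TGF-β1 and -0.24 (SE 0.03, edgeR adjusted p = 6.4e-06) for acetate against control. A gene on the opposite strand within the JAG1 locus, RP11-103J8.1, measured 12.8 ± 0.754, 23.7 ± 1.30 and 11.1 ± 0.987 CPM in the same order (n = 4). The strand setting of the counting is not given, and without strand, reads from the shared stretch cannot be told apart.

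JAG2, the other Jagged ligand, moved the other way. Its values were 17.2, 14.2, 14.2 and 15.9 CPM in control, 10.1, 11.7, 11.5 and 11.7 CPM with TGF-β1, and 30.0, 27.1, 32.1 and 28.3 CPM with acetate. All 3 groups were separate, with the acetate libraries highest. The log2 fold change was -0.44 (SE 0.08, edgeR adjusted p = 3.6e-05) for TGF-β1 against control, 1.40 (SE 0.07, edgeR adjusted p = 4.0e-11) for acetate against TGF-β1 and 0.94 (SE 0.09, edgeR adjusted p = 2.5e-10) for acetate against control. RP11-44N21.4, which overlaps JAG2 on the same strand, measured 3.24 ± 0.404, 2.44 ± 0.329 and 5.35 ± 0.353 CPM (n = 4), and reads in the shared part could have gone to either gene.

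DLL1, a Delta-like ligand, was close to the floor without acetate. The raw counts were 7, 4, 1 and 4 in control, 3, 6, 26 and 10 with TGF-β1, and 56, 52, 61 and 56 with acetate, or 0.0815 ± 0.0483, 0.250 ± 0.189 and 1.41 ± 0.119 CPM (n = 4). Every acetate library was above every other library, and TGF-β1 library S17 was above the rest of its group. Acetate against TGF-β1 gave a log2 fold change of 2.41 (SE 0.46, edgeR adjusted p = 9.4e-06), which became 3.07 without TGF-β1 library S17 (edgeR adjusted p = 5.1e-07). Against control the acetate libraries were higher by 4.02 (SE 0.29, edgeR adjusted p = 2.5e-08), and by 3.78 to 4.41 over the alternatives. At such low counts the SE, taken from log2 CPM with a prior count of 2, is not the standard error of the edgeR estimate. In both tests DLL1 passed the filter only through the acetate group, where it is high, so it could enter them only with a difference. TGF-β1 against control was tested only when the filter on low counts was dropped, with a log2 fold change of 1.62 (edgeR adjusted p = 0.019), and in the joint fit of all libraries (1.62, edgeR adjusted p = 0.0093), and the 2 groups overlapped. FAM120B overlaps DLL1 on the opposite strand and measured 22.1 ± 0.447, 26.0 ± 0.635 and 27.5 ± 0.957 CPM (n = 4), so without strand a few of its reads could enter the count of DLL1.

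Per length, JAG1 made up 96.0 ± 0.464% of the summed level of JAG1, JAG2 and DLL1 in control, 98.2 ± 0.131% under TGF-β1 and 90.6 ± 0.790% once acetate was added (n = 4). JAG2 took 4.00 ± 0.443%, 1.73 ± 0.110% and 8.54 ± 0.746%. The ratio of summed ligand to summed receptor level per length was 5.00 ± 0.304 in control, 6.66 ± 0.338 under TGF-β1 and 2.63 ± 0.114 once acetate was added, with no overlap between groups. This ratio describes transcripts only, and it was computed with exon length alone. With the longest transcript of each gene, JAG1 came to 97.1%, 98.7% and 93.3% of the ligand level. JAG2 came to 2.84%, 1.22% and 6.16%, in the same order of groups.

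LFNG, the fringe enzyme that lengthens O-fucose on Notch receptors, showed the largest rise of the 9 members tested under TGF-β1. It stood at 8.46, 8.63, 8.95 and 8.34 CPM in control, 59.1, 66.9, 57.2 and 64.7 CPM with TGF-β1, and 42.7, 39.0, 40.6 and 40.0 CPM with acetate. The groups did not overlap, and the acetate libraries lay nearer to TGF-β1 than to control. TGF-β1 raised it 7.24-fold (2.86 on the log2 scale, SE 0.06, edgeR adjusted p = 1.2e-16). Acetate lowered it by a log2 fold change of -0.60 (SE 0.06, edgeR adjusted p = 3.7e-08), and it remained above control by 2.24 (SE 0.04, edgeR adjusted p = 2.8e-17).

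HES1 and HES4 encode related repressors of the basic helix-loop-helix class, and HES1 is the best known direct target of Notch. Their promoters are shown because both hold the RBPJ core motif, TGGGAA, near the start site, while the values that follow differ between the genes. The sequences are the 200 bases from 250 to 51 bases before the RefSeq start, on GRCh38.p14, 5′ to 3′ on the gene's strand, with the motif in capitals. HES1 lies at chr3:194135898-194136097 (plus strand) and HES4 at chr1:1000148-1000347 (minus strand).
HES1: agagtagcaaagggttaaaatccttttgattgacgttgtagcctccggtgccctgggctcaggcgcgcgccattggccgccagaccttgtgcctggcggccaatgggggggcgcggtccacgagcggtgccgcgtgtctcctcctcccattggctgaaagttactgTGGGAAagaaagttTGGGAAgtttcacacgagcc
HES4: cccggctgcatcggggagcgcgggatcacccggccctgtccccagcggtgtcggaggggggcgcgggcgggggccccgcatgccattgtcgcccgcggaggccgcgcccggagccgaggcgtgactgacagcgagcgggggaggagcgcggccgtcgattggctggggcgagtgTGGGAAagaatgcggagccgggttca

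HES1 held the motif at -84 and -70 and HES4 at -76, counted from the RefSeq start, all on the gene's strand. By the positions of the count files HES4 starts at 1000172, inside the window shown, so its motif lies at that start. For HES1 the files' start, 194136145, lies outside the window, so the placements are not alike on that annotation. Searched on both strands in the 250 bases before each start, TGGGAA was present in 20.8% of 35116 promoters and the longer GTGGGAA, which contains it, in 5.43%. Of the 8 members with a promoter in the table, HES1, HES4 and 1 of the LFNG promoters held TGGGAA, and HES1 and HES4 held GTGGGAA. The percentages count promoters while the 8 members are counted as genes, so they are not in the same unit. The promoters are credited to RefSeq, and DLL1 and HEY1 had no entry in that table. A match describes these letters and is no measure of binding.

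HES1 rose with TGF-β1 and fell below control with acetate. It measured 25.9, 26.9, 27.7 and 26.0 CPM in control, 33.8, 35.7, 40.9 and 38.3 CPM with TGF-β1, and 19.7, 17.3, 17.9 and 17.9 CPM with acetate, and no group overlapped another. Log2 fold changes were 0.49 (SE 0.06, edgeR adjusted p = 4.6e-07) for TGF-β1 against control, -1.02 (SE 0.07, edgeR adjusted p = 7.1e-10) for acetate against TGF-β1 and -0.55 (SE 0.05, edgeR adjusted p = 6.9e-08) for acetate against control. Of all pairs of members, HES1 and JAG1 had the closest profiles over the 12 libraries, with a root mean square difference of 0.16 in centred log2 CPM, and both were highest with TGF-β1 and lowest with acetate. Genes outside the members lay closer to each, such as PIF1 to HES1 (0.09) and HNRNPA1P48 to JAG1 (0.08).

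HES4 did not pass in any comparison. Its levels were 6.31, 5.61, 5.47 and 5.07 CPM in control, 5.43, 6.09, 5.19 and 5.19 CPM with TGF-β1, and 5.69, 5.66, 6.15 and 4.13 CPM with acetate. The groups overlapped throughout, with log2 fold changes of -0.03 (SE 0.08) for TGF-β1 against control, -0.005 (SE 0.14) for acetate against TGF-β1 and -0.05 (SE 0.14) for acetate against control. The smallest edgeR adjusted p of the 3 was 0.67, and under the alternatives tried the smallest adjusted p was 0.20.

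HEY1, a target of Notch and of TGF-β and BMP signals, rose with TGF-β1 from low levels. It stood at 1.56, 0.857, 1.02 and 1.02 CPM in control, 2.42, 2.03, 2.25 and 2.27 CPM with TGF-β1, and 3.13, 2.52, 2.39 and 2.70 CPM with acetate. Control was lowest, and the treated groups overlapped. The change was 1.01 on the log2 scale (SE 0.18, edgeR adjusted p = 5.5e-05) for TGF-β1 against control and 1.26 (SE 0.20, edgeR adjusted p = 8.0e-07) for acetate against control. For acetate against TGF-β1 it was 0.26 (SE 0.10, edgeR adjusted p = 0.073), which passed when libraries were scaled by totals (0.40, edgeR adjusted p = 0.012) and when S24 was left out (0.32, edgeR adjusted p = 0.047), the adjusted p ranging up to 0.22 over the alternatives. By group mean, HES1 was highest with TGF-β1 and HEY1 with acetate.

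**Figure D3:**
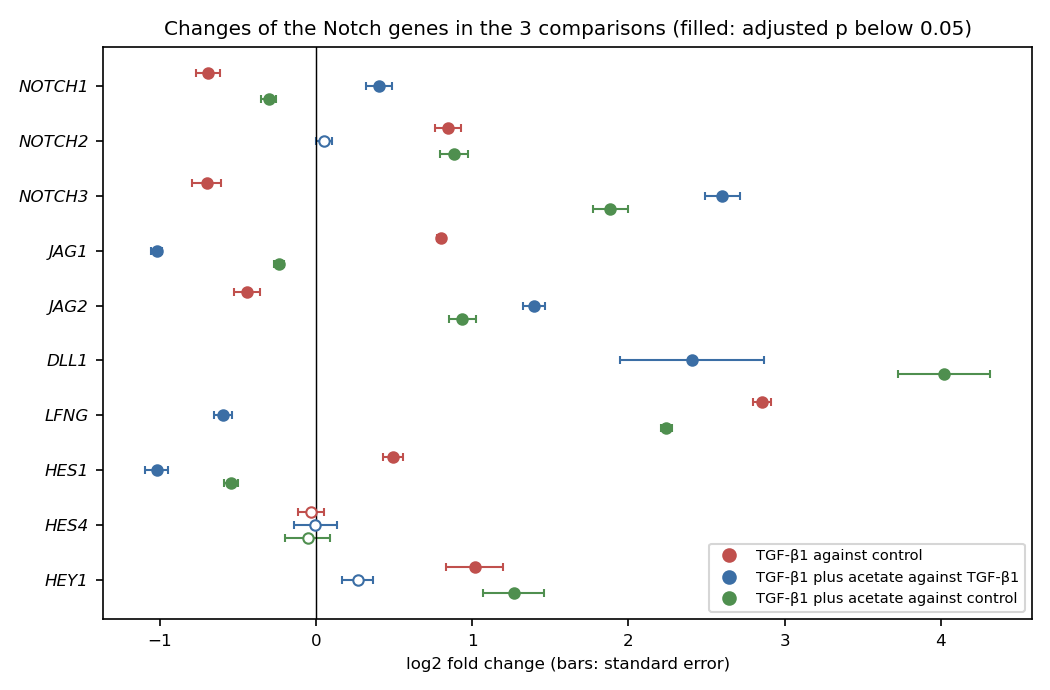
Log2 fold change (horizontal axis, with standard error bars) of each of the 10 genes (rows) in the 3 comparisons (colours), filled where the edgeR adjusted p is below 0.05. NOTCH3, JAG2 and DLL1 lie at 2.60, 1.40 and 2.41 for acetate against TGF-β1, while JAG1 and HES1 both lie at -1.02; DLL1 has no point for TGF-β1 against control because it was not tested.

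Ranked by CPM per kilobase in control, JAG1 (57.6 ± 1.46) came first, then HES1 (12.9 ± 0.394), NOTCH2, HES4, NOTCH1, LFNG, JAG2, NOTCH3, HEY1 and DLL1 (n = 4). Neighbours in that order were separate in every library except LFNG and JAG2, which overlapped. With TGF-β1, LFNG (18.1) moved up beside HES1 (18.04), and these were the only overlapping neighbours. With acetate, NOTCH2 (12.3 ± 0.737) overlapped LFNG (11.9 ± 0.461), and NOTCH3 (4.96 ± 0.623), HES4 (4.84 ± 0.786) and JAG2 (4.59 ± 0.345) overlapped in turn. These orders and overlaps rest on exon length, and no other length was tried for them.

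Genes with the most similar profile were sought among 17430 others (17431 for DLL1) with a mean of at least 1 CPM, as the smallest root mean square difference of centred log2 CPM over the 12 libraries. NOTCH2 was nearest to the proteoglycan gene VCAN (0.06), LFNG to the forkhead factor gene FOXD1 (0.07) and the secreted binding protein gene IGFBP7 (0.09), and HES1 to the helicase gene PIF1 (0.09). JAG2 was nearest to the arrestin gene ARRB1 (0.09), NOTCH3 to the kinase gene FYN (0.18) and NOTCH1 to ABHD11 (0.07). For JAG1 the nearest was its own opposite-strand neighbour RP11-103J8.1 (0.08). VCAN measured 802, 1458 and 1506 CPM as group means in control, TGF-β1 and acetate, and FYN 2.04, 1.19 and 6.89 CPM. For DLL1 the nearest, STON1-GTF2A1L and STON1, were far less close (0.44 and 0.47) and overlap each other, so they can share reads.

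The rest of the pathway was taken from 6 lists by role, with 57 genes, 54 of them with a row, of which 51, 54 and 53 were tested in the 3 comparisons. TGF-β1 raised 24 and lowered 15 of 51, acetate on top of TGF-β1 raised 20 and lowered 23 of 54, and acetate against control raised 28 and lowered 14 of 53. Over all genes the shares called higher and lower were 34.1% and 32.8%, 33.3% and 30.4%, and 36.1% and 34.4% in the same order, and the shares within the 6 lists below are to be set against these. The medians were 0.10, 0.04 and 0.20 on the log2 scale. The 54 tested and the median of 0.04 include DLL4, DTX1 and NEURL1, which entered that comparison only through their counts with acetate. With library totals the acetate comparison gave 10 lower in place of 23, so calls on its smaller changes depend on the scaling.

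Among the other receptors and ligands, 2 of 4 rose and 0 fell with TGF-β1, and 1 of 5 rose and 2 fell with acetate. DNER, a non-canonical ligand of neural tissue, rose from 1.16 ± 0.110 to 11.99 ± 0.648 CPM with TGF-β1 and measured 9.76 ± 0.776 CPM with acetate (n = 4). Its log2 fold changes were 3.38 (edgeR adjusted p = 7.0e-15) and -0.28 (edgeR adjusted p = 0.0022), the latter lost with library totals (-0.15, edgeR adjusted p = 0.074). DLL4, a Delta-like ligand of endothelium, measured 0.259 ± 0.0373, 0.0622 ± 0.0400 and 0.424 ± 0.0146 CPM (n = 4), and it rose with acetate by 2.65 over a TGF-β1 group at 1 to 6 counts a library (edgeR adjusted p = 1.7e-05). Like DLL1, DLL4 and DTX1 were below the filter in the comparison of TGF-β1 with control and entered the other through their counts with acetate. NEURL1 had no row with the control libraries and entered the acetate comparison in the same way. Such genes could enter it only with a difference. NOTCH4 rose with TGF-β1 by 0.70 (edgeR adjusted p = 0.0051) from 0.814 ± 0.166 CPM. Its fall with acetate (-0.53, edgeR adjusted p = 0.041) was lost with library totals and without S15, S16, S17, S22 or S25.

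In the glycosylation list, 1 of 4 rose and 0 fell with TGF-β1, and 2 rose and 2 fell with acetate. MFNG, a second fringe enzyme, went from 0.542 ± 0.0366 to 2.17 ± 0.0209 and 3.27 ± 0.400 CPM (n = 4), with log2 fold changes of 2.00 (edgeR adjusted p = 3.6e-09) and 0.60 (edgeR adjusted p = 3.2e-04). The third fringe gene, RFNG, rose with acetate by 0.48 (edgeR adjusted p = 3.6e-05). For TGF-β1 against control it gave -0.08 and did not pass (edgeR adjusted p = 0.37), but it passed as a fall when scaled by totals (-0.18, edgeR adjusted p = 0.031) and when S17 was left out (-0.17, edgeR adjusted p = 0.022). POFUT1, which adds the fucose that fringes extend, fell with acetate by -0.21 on the log2 scale (edgeR adjusted p = 4.0e-05).

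Of 9 genes for receptor cleavage, 4 rose and 4 fell with TGF-β1, and 5 rose and 3 fell with acetate. FURIN, the convertase that matures the receptors and a known TGF-β target, rose from 78.2 ± 4.37 to 198 ± 9.20 CPM (n = 4, log2 fold change 1.34, edgeR adjusted p = 1.0e-13). ADAM10, the main ligand-dependent sheddase, rose by 0.70 with TGF-β1 and fell by -0.28 with acetate, while its relative ADAM17 changed by -0.57 and 0.15 (largest edgeR adjusted p of the 4, 0.003). The γ-secretase genes PSEN2 and APH1B each had a log2 fold change of -0.27 with TGF-β1, and 0.26 and 0.36 with acetate.

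Genes of endocytosis and turnover rose in 8 of 11 cases and fell in 1 with TGF-β1, against 34.1% and 32.8% of all genes. With acetate 5 rose and 5 fell of 13, against 33.3% and 30.4% of all genes. Of these 13, DTX1 and NEURL1 passed the filter only through the acetate group. NEURL1 held 3 to 11 counts in the TGF-β1 libraries and 18 to 28 with acetate. The ubiquitin ligase gene NEURL1B rose with TGF-β1 by 1.70 (edgeR adjusted p = 2.1e-12), NUMBL by 1.03 and DTX4 by 0.68. NUMB, an inhibitor of Notch that is passed unequally to daughter cells, fell from 64.9 ± 2.28 to 49.7 ± 2.47 CPM and rose with acetate to 75.1 ± 3.02 CPM (n = 4), with log2 fold changes of -0.38 (edgeR adjusted p = 7.3e-07) and 0.61 (edgeR adjusted p = 8.6e-09). DTX1, a regulator and target of Notch, rose with acetate from 0.214 ± 0.0804 to 1.39 ± 0.308 CPM (n = 4, log2 fold change 2.66, edgeR adjusted p = 4.7e-07). MIB1, the ligase that activates ligands, rose with acetate by 0.28 (edgeR adjusted p = 1.9e-06).

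The transcription complex and its corepressors split with TGF-β1, 8 rising and 8 falling of 18, and with acetate 4 rose and 11 fell. The Mastermind genes MAML2 and MAML3 rose with TGF-β1 by 1.96 and 1.19 (edgeR adjusted p = 1.3e-13 and 3.8e-13). With acetate MAML3 fell by -0.50 on the log2 scale (edgeR adjusted p = 9.1e-07), and MAML2 by -0.27 (edgeR adjusted p = 0.0031), a call lost with library totals (-0.14, edgeR adjusted p = 0.11). RBPJ itself, named after its values were seen, measured 40.1 ± 2.37, 61.5 ± 2.34 and 48.2 ± 2.28 CPM (n = 4), with log2 fold changes of 0.62 (edgeR adjusted p = 3.1e-09) and -0.34 (edgeR adjusted p = 4.4e-06). The Groucho-type corepressor gene TLE3 rose with TGF-β1 by 1.55 (edgeR adjusted p = 1.7e-14). Its relative TLE2 measured 3.60 ± 0.541, 2.32 ± 0.342 and 6.87 ± 0.518 CPM (n = 4) and rose with acetate by 1.59 (edgeR adjusted p = 3.8e-09). The acetyltransferase gene KAT2A fell with acetate by -0.45 (edgeR adjusted p = 1.2e-07).

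Of 5 other target genes (HES2, HES6, HES7, HEYL and NRARP), 1 rose and 2 fell with TGF-β1, and 3 rose and 0 fell with acetate. HES7, the oscillating repressor of the segmentation clock, measured 1.28 ± 0.315, 0.450 ± 0.101 and 4.08 ± 0.881 CPM in control, TGF-β1 and acetate libraries (n = 4). Its log2 fold changes were -1.51 (edgeR adjusted p = 3.0e-05) and 3.20 (edgeR adjusted p = 1.8e-09), and the groups did not overlap. HES2 rose with acetate from 1.06 ± 0.179 to 4.57 ± 0.0951 CPM (n = 4, log2 fold change 2.12, edgeR adjusted p = 7.3e-10), and HES6 by 0.52 (edgeR adjusted p = 8.1e-04). HEYL fell with TGF-β1 from 4.95 ± 0.464 to 2.99 ± 0.342 CPM (n = 4, log2 fold change -0.73, edgeR adjusted p = 1.1e-05).

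**Figure D4:**
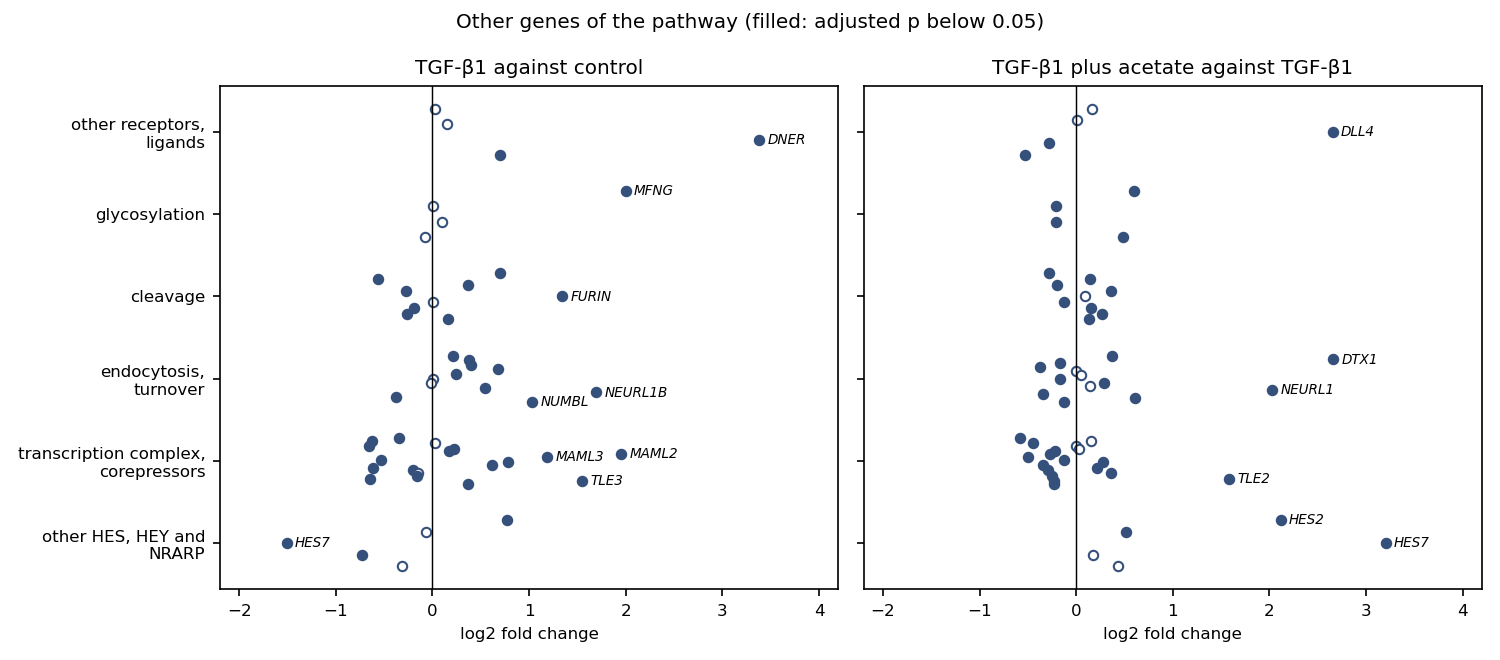
Log2 fold change (horizontal axes) of each tested gene of the 6 other pathway lists (rows of points) for TGF-β1 against control (left) and acetate against TGF-β1 (right), filled where the edgeR adjusted p is below 0.05 and named where the change is at least 1 on the log2 scale in either direction. DNER lies farthest right on the left side at 3.38, and HES7 lies at -1.51 on the left and 3.20 on the right.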

How the data were processed

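The deposited files are 2 tables of raw counts per gene, each holding 8 libraries, with the authors' log2 fold changes beside them. Per the submitters' processing notes, bcl2fastq, HISAT2, hg38 and limma were used; neither versions nor the read counter, strand handling or gene models could be read there (not given in the sources used here). Per the labels' protocols, libraries were stranded total RNA without ribosomal RNA. A further 32 columns of per-library values were not used. Column codes name no sample: the set of 4 columns in both tables, identical in all 23771 shared genes, was read as TGF-β1 and the others by the names of the tables. No pair of libraries of a group was a duplicate (chi-square per degree of freedom at least 3.95).

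Low genes were removed with filterByExpr (at least 10 counts in enough libraries, 15 over all), TMM factors were applied, and groups were tested by the two-sided edgeR 4.0.16 quasi-likelihood test in R 4.3.3, with Benjamini-Hochberg adjustment over all genes tested and a threshold of 0.05. The first 2 comparisons were fitted within their table and the last over all 12 libraries. Levels are CPM from the joint scaling, as mean ± SD. SE comes from the spread of log2 CPM (prior count 2) within groups, not from the edgeR fit. Lengths are unions of GENCODE 29 exons. The authors' log2 fold changes in the deposited tables had the same sign as those above for every member.

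Alternatives were RLE size factors, library totals, no filter, DESeq2 1.42.0, limma-voom (limma 3.58.1), a joint fit and each library left out. Named pathway genes are, per list, the 3 with the smallest p among those passing in each of the first 2 comparisons, and the 3 nearest genes per member, of which some are described. The members and lists were chosen with earlier results of these data known. CDKN2A, planned as a check of the line, was not analysed here.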

Additional observations from a re-analysis of the deposited data

Results flagged for a closer look

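Each group of 4 libraries was checked for a library far from the other 3, over 108 groups of values from the members and the named pathway genes. The gap to the nearest library, as a share of the group's range, had to exceed 0.829, which chance alone gives in about 1 in 20 groups, and 6 groups met it. For JAG2, TGF-β1 library S15 was low at 10.1 CPM against 11.5 to 11.7 CPM. For KAT2A the same library was low at 52.6 CPM against 56.1 to 56.3 CPM. PSEN2 was high in control library S4 at 28.2 CPM against 24.8 to 24.9 CPM. MIB1 was high in control library S2 at 135 CPM against 114 to 115 CPM. MAML2 was low in acetate library S24 at 19.5 CPM against 23.3 to 23.5 CPM. HES7 was high in TGF-β1 library S16 at 0.600 CPM against 0.390 to 0.416 CPM. No cause was tested.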

How the results depend on the processing

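Of 436 values of the members under the alternatives, 432 kept their direction where called and their side of the threshold, and 4 gained a call, namely NOTCH2 and HEY1 for acetate against TGF-β1 with library totals and without S24. DLL1 for that comparison ran from 2.08 to 3.07 on the log2 scale. Of 1142 values of named pathway genes, 20 lost a call, 6 gained one and 2 turned direction, both with library totals: POFUT1 for TGF-β1 against control (-0.096, edgeR adjusted p = 0.017, against 0.0067) and NUMBL for acetate against TGF-β1 (0.0051, against -0.13). With library totals the number of other pathway genes called lower with acetate was 10, against 23, and the median over all genes moved from 0.02 to -0.09 for TGF-β1 against control. DLL4 for acetate against control (0.71, edgeR adjusted p = 0.029) lost its call in DESeq2 (adjusted p = 0.095) and with 6 single libraries left out. Of the 30 nearest genes, 30 were kept with RLE factors and 29 with library totals. No paired analysis was possible because the count columns carry no replicate numbers. Depth limits DLL1, DLL4, DTX1 and NEURL1, whose TGF-β1 libraries held 3 to 26, 1 to 6, 5 to 15 and 3 to 11 counts.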
